A study of Mus musculus with 12 samples.

Results

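Collagen chain genes encode the polypeptides that wind in groups of 3 into collagen molecules. They were taken from the arrays by their symbol, as every probe other than a control whose gene name was Col, a number, the letter a and a number. This gave 43 genes read by 68 probes, of 55681 probes with 34797 gene names on the array. The genes fell into 11 fibrillar chains, 6 basement membrane chains of collagen IV and 26 others. Aortic RNA of 12 C57BL/6J mice was read on day 3, each mouse on an array of its own. DMSO mice (n = 3) received only the vehicle dimethylsulfoxide, and rapamycin mice (n = 3) received 2 mg/kg/day of rapamycin, an inhibitor of the kinase mTOR, in that vehicle. BA+DMSO mice (n = 3) received the challenge, which was β-aminopropionitrile (BAPN, 150 mg/kg/day) with angiotensin II (AngII, 1 µg/kg/min), together with vehicle. BA+rapamycin mice (n = 3) received the challenge and rapamycin. By the treatment labels and the study's methods all groups share the vehicle. Per the study's methods the mice were males aged 11 to 14 weeks, and a 10 mm length of aorta above the right renal artery was taken. The sample titles of the DMSO group carry a prefix that the study uses in a figure for tissue before the challenge. The series record instead lists that group at day 3 with DMSO alone, and that description is used here. Whether these mice were taken before the challenge or after 3 days of vehicle cannot be told from the labels.

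Fibrillar collagens such as types I, III and V form the cross-linked fibrils that give the aortic adventitia and media their tensile strength. Collagen IV chains form the sheet-like network of basement membranes, which surround smooth muscle cells and underlie the endothelium. The remaining collagens include the beaded filaments of type VI, the short-chain network collagen VIII, proteins such as types XII, XIV, XVI and XX that sit on fibrils, types XV and XVIII at basement membranes, and the transmembrane collagen XXIII. BAPN inhibits lysyl oxidase, the enzyme family that cross-links collagen and elastin, and its combination with AngII leads to aortic dissection in this model.

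Each value below is a log2 signal relative to the 75th percentile of its own array, so 0 is that percentile and a difference of 1 is a 2-fold change. Levels of different probes are not comparable, and only differences between groups are compared across genes. To be tested, a probe had to stand clear of background in every replicate of 1 or more groups (Agilent's flag for a spot well above background), and each gene stands by its tested probe with the highest mean. That left 29 of 43 genes: 8 of 11 fibrillar, 6 of 6 basement membrane and 15 of 26 other chains. A gene was called when limma's adjusted p (Benjamini-Hochberg over all 27801 tested probes) was under 0.05. Whether the arrays of 2 groups overlapped is given as a description only. The share of all genes without overlap was not counted, so a lack of overlap is not shown to be particular to collagen genes.

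The arrays differed in ways that bear on every comparison. The 3 DMSO arrays and rapamycin replicate 1 lay on 1 slide and the other 8 arrays on the second slide, so slide and challenge are nearly inseparable. The 75th percentile of signal, a measure of brightness, ran from 221 to 280 intensity units in DMSO and from 257 to 337 in rapamycin, but from 78.1 to 246 in BA+DMSO and from 74.6 to 109 in BA+rapamycin. BA+DMSO arrays correlated with each other at 0.912 to 0.961 across probes, against 0.974 to 0.993 within the other groups. Over the tested collagen genes the median SD was 0.55 in BA+DMSO, against 0.16 in DMSO, 0.18 in rapamycin and 0.19 in BA+rapamycin. Limma fitted 1 spread per probe over all 4 groups. Each SE below therefore tends to be too small where BA+DMSO is compared and too large where it is not, and the p-values follow. All 7 smooth muscle markers were well above background on all 12 arrays. So were all tested fibroblast, endothelial, macrophage and adipocyte markers, so this does not set the labelled tissue apart from others.

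Of the 29 tested collagen genes, 10 were called in the same direction by both comparisons of challenged with unchallenged mice, and RefSeq holds a promoter for 7 of these. For 5 of them the 250 bases before the gene start are printed here, because the RNA of these chains changed in both comparisons: 2 fibrillar chains, the 2 genes with the largest rises, and the collagen IV chain that fell. They come from build GRCm38.p6, 5′ to 3′ on the gene's strand, at chr6:4505368-4505617 (plus) for Col1a2, chr1:45311288-45311537 (plus) for Col3a1, chr16:57754738-57754987 (minus) for Col8a1, chr4:47207762-47208011 (plus) for Col15a1 and chrX:141474077-141474326 (minus) for Col4a6. Capitals mark matches on either strand to 4 motifs. The TATA box was searched as TATAAA, where transcription factors that place the start can bind. The CCAAT box was searched as CCAAT, a frequent element of collagen promoters. The AP-1 site was searched as TGANTCA, the element bound by Fos and Jun. The GC box was searched as GGGCGG, the element bound by Sp1. No base of the printed sequences lay in matches to different motifs.
Col1a2: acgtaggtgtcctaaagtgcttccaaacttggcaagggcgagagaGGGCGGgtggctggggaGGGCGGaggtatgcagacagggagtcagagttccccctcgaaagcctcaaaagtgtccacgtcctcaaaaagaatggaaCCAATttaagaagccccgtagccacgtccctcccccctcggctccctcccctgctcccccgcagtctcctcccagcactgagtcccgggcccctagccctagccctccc
Col3a1: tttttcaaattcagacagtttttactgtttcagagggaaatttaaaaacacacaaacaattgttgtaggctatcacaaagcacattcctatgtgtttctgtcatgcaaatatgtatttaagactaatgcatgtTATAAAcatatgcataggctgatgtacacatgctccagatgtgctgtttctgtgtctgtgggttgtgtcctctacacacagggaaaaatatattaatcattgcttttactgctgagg
Col8a1: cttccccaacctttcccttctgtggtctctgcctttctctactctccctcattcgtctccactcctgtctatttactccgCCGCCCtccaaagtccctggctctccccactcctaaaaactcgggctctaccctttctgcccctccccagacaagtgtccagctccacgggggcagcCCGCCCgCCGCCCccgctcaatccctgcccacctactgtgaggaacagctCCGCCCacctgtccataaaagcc
Col15a1: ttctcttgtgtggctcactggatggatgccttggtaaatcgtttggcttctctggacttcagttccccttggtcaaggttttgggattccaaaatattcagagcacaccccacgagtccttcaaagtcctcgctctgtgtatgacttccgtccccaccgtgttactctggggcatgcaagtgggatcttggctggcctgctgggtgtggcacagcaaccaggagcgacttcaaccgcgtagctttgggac
Col4a6: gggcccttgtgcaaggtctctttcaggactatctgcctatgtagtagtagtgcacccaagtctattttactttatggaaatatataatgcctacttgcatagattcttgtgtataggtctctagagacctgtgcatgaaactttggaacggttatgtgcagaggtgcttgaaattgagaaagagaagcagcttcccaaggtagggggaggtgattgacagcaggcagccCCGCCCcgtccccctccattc

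The GC box occurred 4 times before Col8a1, 2 times before Col1a2 and 1 time before Col4a6. Col1a2 also held a CCAAT box, Col3a1 held a TATA box, and Col15a1 held none of the 4 motifs. Among the 23 tested collagen genes with a promoter in the table, 16 held a GC box, 8 a CCAAT box, 2 a TATA box and 1 an AP-1 site. Among all 32851 promoters of this length, 32.7% held a GC box, 33.8% a CCAAT box, 12.4% a TATA box and 6.75% an AP-1 site. These are matches of letters in a window and not shown to be sites.

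The challenge, BA+DMSO minus DMSO, asked which collagen chains differed after 3 days of BAPN and AngII. The main fibrillar chains were higher, by 1.62- to 1.99-fold for Col1a1, Col1a2, Col3a1 and Col5a1, although each of these calls was lost in 12 or more of 25 alternative settings. The largest rises were outside that class, in Col8a1 (10.4-fold), Col15a1 (5.5-fold) and Col12a1 (5.2-fold). Their sizes depended on the setting. Over 25 alternatives the log2 difference ran from 2.13 to 4.79 for Col8a1, from 0.87 to 3.00 for Col15a1 and from 1.71 to 3.82 for Col12a1. Col27a1, Col4a6 and Col22a1 were lower. In all, limma called 12 of 29 genes, 9 higher and 3 lower, against a background of 21.4% among the 20026 gene names tested, of which 10.4% higher and 11% lower. By class, 5 of 8 fibrillar, 1 of 6 basement membrane and 6 of 15 other chains were called, and the median log2 difference was 0.73, 0.16 and 0.48, against -0.02 over all genes. With 1 array left out these medians ran from 0.52 to 0.92, from 0.071 to 0.23 and from 0.13 to 0.58, in that order. The fibrillar median was 0.41 with brightness as a covariate. The basement membrane median changed sign with normexp background correction (-0.011) and with a block on the title string (-0.10). The normexp setting models background in place of subtracting it and also adds an offset of 50 intensity units to every spot, and its values do not separate these 2 changes. By the threshold in the study's methods, an unadjusted p under 0.01 with a fold change above 4 or under 0.25, the 3 largest rises passed, where 2.83% of all genes did.

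The aorta is a mixture of cells, so a change in RNA per cell and a change in the number of cells of a type cannot be told apart. Of all genes, 10.4% were called higher and 11% lower in the challenge, and 19.8% higher and 22.9% lower under rapamycin. Macrophage markers (6 of 6 tested) scored -0.37 to 0.56 in DMSO against 1.33 to 2.75 in BA+DMSO, and 0.31 to 0.62 in rapamycin against 1.71 to 1.82 in BA+rapamycin, and 5 were called higher by each challenge comparison. Mesothelial markers (6 of 6 tested, 1 well above background on all arrays) scored -1.30 to 1.35 in DMSO against 2.13 to 3.10 in BA+DMSO, and 0.36 to 1.34 in rapamycin against 0.16 to 2.62 in BA+rapamycin, and 5 were called higher in the challenge and 0 under rapamycin. Fibroblast markers (7 of 7) scored -0.39 to 0.63 against -0.31 to 0.89, and 0.40 to 0.77 against 0.092 to 0.29, with 1 called higher in the challenge, and 2 higher and 1 lower under rapamycin. Smooth muscle markers (7 of 7) scored -0.051 to 0.021 against -1.32 to 0.23, and -0.15 to 0.050 against -0.34 to -0.059, with 1 called lower in the challenge, and 1 higher and 2 lower under rapamycin. Endothelial markers (7 of 7) scored -0.0096 to 0.12 against 0.50 to 0.89, and 0.15 to 0.48 against 0.28 to 1.46, with 3 called higher in the challenge, and 1 higher and 2 lower under rapamycin. Adipocyte markers (5 of 6 tested) scored -0.56 to 0.41 in DMSO against 0.36 to 2.73 in BA+DMSO. They scored -1.24 to 0.83 in rapamycin against -0.32 to 2.97 in BA+rapamycin. Their median log2 differences were 1.46 in the challenge and 1.73 under rapamycin, with 0 called in each. The part of these cells in the collagen differences was not tested.

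Col1a1 and Col1a2 encode the 2 chains of collagen I, the main fibril of the adventitia. Col1a1 (mm9 chr11:94813115-94813174) was 6.98, 6.97 and 7.14 in DMSO and 8.26, 8.43 and 7.37 in BA+DMSO (log2 difference 0.99, SE 0.26, limma adjusted p 0.0243). Col1a2 (chr6:4490619-4490678) was 9.11, 8.98 and 9.08 in DMSO and 10.05, 9.86 and 9.35 in BA+DMSO (log2 difference 0.70, SE 0.21, adjusted p 0.0371). For both chains every BA+DMSO array was above every DMSO array, and BA+DMSO replicate 3 was the lowest of its group. Over 25 alternative settings the call was lost in 12 for Col1a1 and 16 for Col1a2, with differences down to 0.40 and 0.092, and with quantile normalization Col1a2 differed by 0.098 (adjusted p 0.767).

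Col3a1, the chain of collagen III, was 7.70, 7.60 and 7.74 in DMSO and 9.17, 8.09 and 8.33 in BA+DMSO (log2 difference 0.85, SE 0.25, adjusted p 0.035). Col5a1, a chain of the collagen V that starts and limits fibrils, was 4.16, 4.28 and 4.23 in DMSO and 5.41, 4.48 and 5.06 in BA+DMSO (log2 difference 0.76, SE 0.22, adjusted p 0.0327). The groups did not overlap for either gene, but over 25 alternatives the call was lost in 14 for Col3a1 and 12 for Col5a1, among them normexp (0.61, adjusted p 0.102, and 0.51, adjusted p 0.142). The partner chain of Col5a1, Col5a2, was 1.66, 1.35 and 1.17 in DMSO and 2.33, 1.37 and 2.02 in BA+DMSO (difference 0.51, SE 0.24, adjusted p 0.153). Col5a3, the third chain of the family, was 0.24, 0.17 and 0.69 in DMSO and 1.92, 1.31 and 0.42 in BA+DMSO (difference 0.85, SE 0.33, adjusted p 0.0927). Groups overlapped for Col5a2 and Col5a3.

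Col27a1, a fibrillar chain best known from cartilage, went the other way. It was -0.69, -0.10 and -0.25 in DMSO and -1.76, -1.67 and -1.19 in BA+DMSO (log2 difference -1.19, SE 0.27, adjusted p 0.0123). Its groups did not overlap. Col11a2, also a cartilage fibril chain, differed by 0.59 (SE 0.40, adjusted p 0.314) with overlapping groups. Of the untested fibrillar chains, Col11a1 was well above background on 2 arrays, both of them BA+DMSO, Col2a1 on 4 arrays of 3 groups, and Col24a1 on none.

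**Figure D1:**
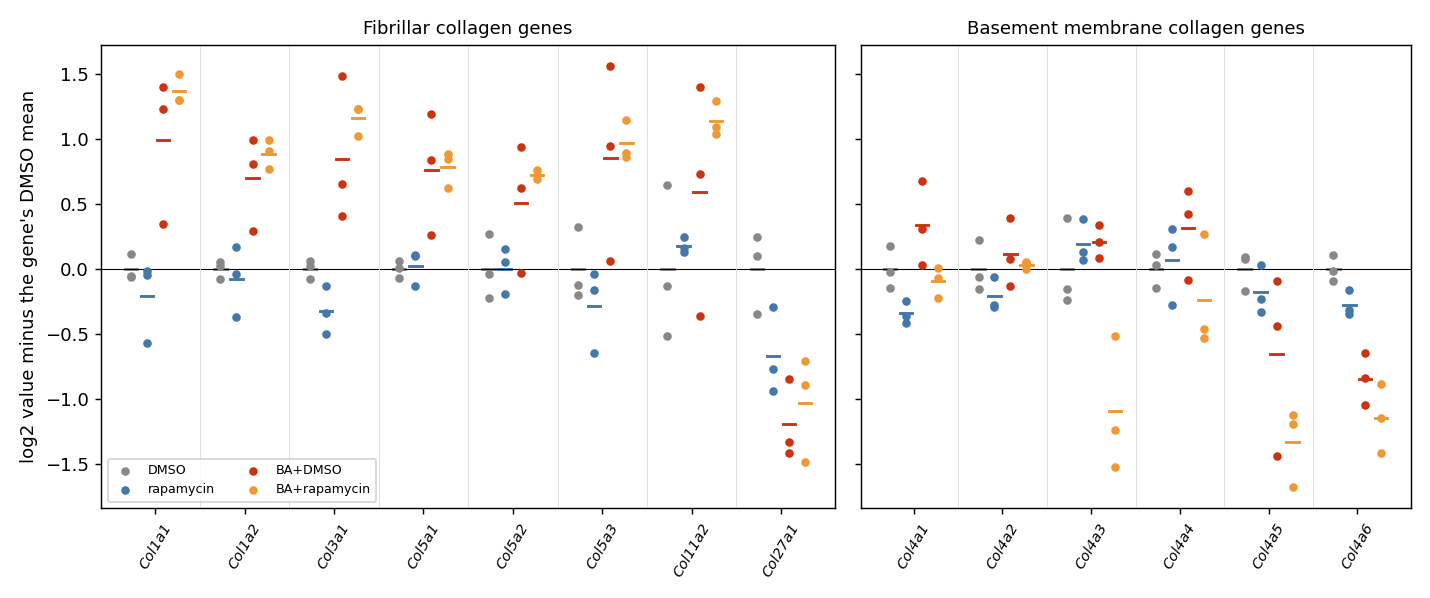
Log2 signal of each tested fibrillar and basement membrane collagen gene minus that gene's DMSO mean (vertical axis) by gene (horizontal axis), with points for the 3 arrays of each group and short lines for group means. For Col1a1, Col1a2, Col3a1 and Col5a1 all challenged arrays lie above all DMSO arrays, whereas Col4a6 lies below them.

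Collagen IV chains pair by gene: Col4a1 with Col4a2, Col4a3 with Col4a4, and Col4a5 with Col4a6. In the RefSeq table Col4a1 and Col4a2 lie head to head on opposite strands with 21 bases between their starts. Col4a1 was 5.39, 5.07 and 5.19 in DMSO and 5.24, 5.52 and 5.89 in BA+DMSO, and the log2 difference of 0.34 (SE 0.19) was not called (adjusted p 0.221). Col4a2 was 4.94, 4.56 and 4.65 in DMSO and 4.79, 4.59 and 5.11 in BA+DMSO, with a difference of 0.11 (SE 0.18, adjusted p 0.682). Both chains overlapped between the groups.

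The other collagen IV chains differed among themselves. Col4a6, whose chain joins Col4a5 in smooth muscle basement membranes, was 5.27, 5.47 and 5.34 in DMSO and 4.31, 4.52 and 4.72 in BA+DMSO (log2 difference -0.84, SE 0.18, adjusted p 0.00966) without overlap. Col4a5 was 4.38, 4.40 and 4.14 in DMSO and 3.87, 2.87 and 4.21 in BA+DMSO (log2 difference -0.66, SE 0.31, adjusted p 0.15). The Col4a5 groups overlapped, and BA+DMSO replicate 2 was the lowest array. Col4a3, a chain best known from kidney and lung, was -1.23, -1.77 and -1.85 in DMSO and -1.28, -1.41 and -1.54 in BA+DMSO (difference 0.21, SE 0.26, adjusted p 0.607). Col4a4 was 1.00, 1.18 and 1.26 in DMSO and 1.57, 1.74 and 1.07 in BA+DMSO (difference 0.31, SE 0.26, adjusted p 0.425). Groups overlapped for both.

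Of the other collagens, Col8a1, a chain of the short network collagen VIII of vessel walls, had the largest difference. It was -2.86, -3.51 and -3.13 in DMSO and 1.39, -1.43 and 0.66 in BA+DMSO (log2 difference 3.38, SE 0.56, adjusted p 0.00295). Even its lowest BA+DMSO array, replicate 2, was above all DMSO arrays. Its partner chain Col8a2 was -0.89, -0.82 and -0.80 in DMSO and 0.83, 0.69 and -0.23 in BA+DMSO (log2 difference 1.27, SE 0.26, adjusted p 0.00826), again without overlap.

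Col12a1, a fibril-associated chain of tendon and adventitia, was -0.9999, -0.91 and -1.35 in DMSO and 2.62, -0.09 and 1.34 in BA+DMSO (log2 difference 2.38, SE 0.53, adjusted p 0.0114). Col16a1, another fibril-associated chain, was 3.74, 3.63 and 3.73 in DMSO and 5.33, 4.77 and 4.50 in BA+DMSO (log2 difference 1.16, SE 0.21, adjusted p 0.0041). Neither gene overlapped between the groups, and the spread of Col12a1 within BA+DMSO was wide (SD 1.36, against 0.235 in DMSO).

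Col15a1, the chain of collagen XV that lies between basement membranes and the tissue around them, was read by 3 tested probes that gave different sizes. By the probe the gene stands by (chr4:47283786-47283845) it was -0.03, 0.23 and 0.65 in DMSO and 3.25, 3.31 and 1.67 in BA+DMSO (log2 difference 2.46, SE 0.41, adjusted p 0.00285). Its groups did not overlap. The other probes, up to 41487 bases further along, gave 0.66 (SE 0.44, adjusted p 0.304) and 0.87 (SE 0.41, adjusted p 0.159). The 3 tested probes of Col16a1, spread over 20003 bases, gave 1.16 to 1.28 and were all called.

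Col22a1, known from tissue junctions of muscle, fell. It was -1.41, -1.36 and -1.17 in DMSO and -3.41, -1.83 and -2.60 in BA+DMSO (log2 difference -1.30, SE 0.32, adjusted p 0.0182), with 2 of 3 BA+DMSO arrays well above background. The groups did not overlap, but with normexp the Col22a1 difference was -0.34 (adjusted p 0.211).

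The collagen VI chains Col6a1, Col6a2 and Col6a3, which assemble with each other into beaded filaments, were not called. Col6a1 was 6.63, 6.48 and 6.44 in DMSO and 6.49, 6.20 and 6.81 in BA+DMSO (difference -0.02, SE 0.19, adjusted p 0.96). Col6a2 was 4.24, 4.10 and 4.004 against 3.76, 3.38 and 4.45 (difference -0.25, SE 0.24, adjusted p 0.493). Col6a3 was 5.52, 5.18 and 5.02 against 6.45, 5.18 and 6.66 (difference 0.86, SE 0.32, adjusted p 0.0828). Groups overlapped for all 3, and for Col6a3 only because of BA+DMSO replicate 2.

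Col14a1, a fibril-associated chain, was 4.73, 4.63 and 4.44 in DMSO and 5.85, 4.41 and 5.02 in BA+DMSO (difference 0.49, SE 0.29, adjusted p 0.248). Col18a1, whose C-terminal fragment is endostatin, was 7.47, 7.46 and 7.31 in DMSO and 6.80, 7.53 and 7.86 in BA+DMSO (difference -0.01, SE 0.24, adjusted p 0.973). Both overlapped between the groups. Their second tested probes gave 0.11 and -0.57, which were not called either.

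The challenge counts depended on how slide was fitted and on single arrays. Of all tested probes 20.5% were called in this comparison, and each share that follows is of those probes. Only the rapamycin group lay on both slides, with replicate 1 alone on the first, so a fixed slide term rests on that 1 array. With slide as a fixed term limma called 0 of the 29 collagen genes and 15 of all probes (0.054%), although Col8a1, Col15a1 and Col12a1 still differed by 3.26, 2.76 and 2.61. With slide as a random block, at an estimated correlation of -0.13, it called 15 collagen genes, 12 higher and 3 lower (36.9%). With array weights it called 0 (0.403%). Leaving out 1 array gave 5 calls (without DMSO replicate 2, 7.38%) to 17 (without BA+DMSO replicate 3, 38%), and 14 without BA+DMSO replicate 2 (27.2%). A fit of the DMSO and BA+DMSO arrays alone called 2 (4.47%), as did a block on a string shared by sample titles (6.16%), which used 1 of the 3 BA+DMSO arrays because the other two carry no such string.

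**Figure D2:**
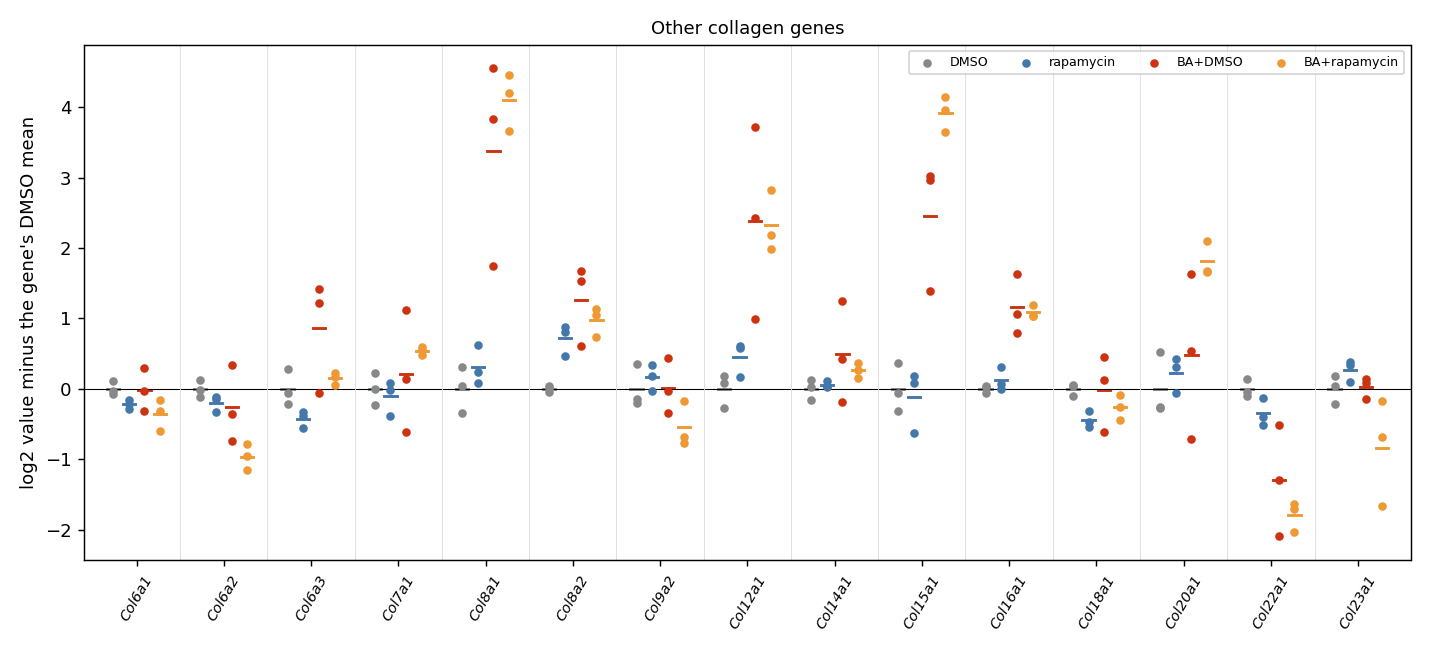
Log2 signal of the 15 tested collagen genes that are neither fibrillar nor basement membrane chains, minus each gene's DMSO mean (vertical axis), by gene (horizontal axis), with points for the 3 arrays of each group and short lines for group means. Col8a1, Col12a1 and Col15a1 lie far above DMSO in both challenged groups, and Col8a1 and Col12a1 show 1 low BA+DMSO array.

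The same challenge was also given to mice on rapamycin, and BA+rapamycin minus rapamycin asks the question there. Rises were 1.65- to 2.98-fold for Col1a1, Col1a2, Col3a1, Col5a1, Col5a2 and Col5a3, 16.4-fold for Col15a1 and 13.8-fold for Col8a1. Over 26 alternatives the log2 difference ran from 0.99 to 4.34 for Col15a1 and from 2.38 to 5.07 for Col8a1. With normexp it was 3.40 and 2.38. Col4a6 and Col4a5 were lower by 1.83- and 2.22-fold, and Col4a3 was called lower from signal near background. Limma called 18 of 29 genes, 11 higher and 7 lower, where 42.7% of all genes were called, 19.8% higher and 22.9% lower. Of the 7 lower, Col9a2 and Col22a1 cleared background on 0 of 3 arrays of BA+rapamycin and Col4a3 and Col23a1 on 1 of 3, so these 4 were tested only because other groups were brighter. Among the genes well above background on all 12 arrays 11 were called higher and 3 lower, and with normexp 11 and 4, where 48% and 62.4% of the probes tested in those fits were called. By class, 6 of 8 fibrillar chains were called, all higher, 3 of 6 basement membrane chains, all lower, and 9 of 15 other chains, 5 higher and 4 lower. Median log2 differences were 0.96, -0.59 and 0.26 in that order, against -0.07 over all genes. The median of the other chains was 0.055 with the title block and 0.61 among genes well above background on all arrays. With no filter on dim probes it was 0.81, where that of all probes was 0.85. The basement membrane median was -0.24 over all probes of these genes and -0.31 with normexp. By the methods' threshold 2 genes passed, Col8a1 and Col15a1, where 5.43% of all genes did.

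Within the fibrillar class, Col1a1 was 6.98, 7.01 and 6.46 in rapamycin and 8.32, 8.53 and 8.33 in BA+rapamycin (log2 difference 1.57, SE 0.26, limma adjusted p 0.0018). Col1a2 was 9.02, 9.22 and 8.69 in rapamycin and 10.04, 9.96 and 9.82 in BA+rapamycin (log2 difference 0.96, SE 0.21, adjusted p 0.00562). Col3a1 was 7.55, 7.34 and 7.18 in rapamycin and 8.91, 8.91 and 8.70 in BA+rapamycin (log2 difference 1.48, SE 0.25, adjusted p 0.00178). None of the 3 overlapped between the groups. Over 26 alternatives the call was lost in 2 for Col1a1, 1 for Col3a1 and 5 for Col1a2, and with quantile normalization Col1a2 differed by 0.047 (adjusted p 0.867).

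The collagen V chains were called higher. Col5a1 was 4.33, 4.32 and 4.09 in rapamycin and 5.11, 5.07 and 4.85 in BA+rapamycin (difference 0.76, SE 0.22, adjusted p 0.0191). Col5a2 was 1.20, 1.55 and 1.45 against 2.12, 2.15 and 2.09 (difference 0.72, SE 0.24, adjusted p 0.0331), and Col5a3 was 0.33, 0.20 and -0.28 against 1.51, 1.25 and 1.22 (difference 1.25, SE 0.33, adjusted p 0.0141). Each BA+rapamycin array was above each rapamycin array for all 3. With normexp Col5a1 differed by 0.33 (adjusted p 0.252) and Col5a2 by 0.36 (adjusted p 0.205), and over 26 alternatives the call was lost in 7 for Col5a1, 11 for Col5a2 and 4 for Col5a3. Col27a1, lower in the challenge, was -0.64, -1.29 and -1.11 in rapamycin and -1.24, -1.83 and -1.06 in BA+rapamycin, and its difference of -0.36 (SE 0.27, adjusted p 0.293) was not called.

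Of the collagen IV chains, Col4a6 was 5.20, 5.04 and 5.02 in rapamycin and 4.48, 4.22 and 3.95 in BA+rapamycin (log2 difference -0.87, SE 0.18, adjusted p 0.00457). Col4a5 was 4.07, 3.97 and 4.34 in rapamycin and 3.11, 3.18 and 2.63 in BA+rapamycin (log2 difference -1.15, SE 0.31, adjusted p 0.0136). Col4a3 was -1.54, -1.49 and -1.23 in rapamycin and -3.13, -2.85 and -2.13 in BA+rapamycin (log2 difference -1.29, SE 0.26, adjusted p 0.0043). All 3 were without overlap, and only 1 of 3 BA+rapamycin arrays had Col4a3 well above background. With normexp the Col4a3 difference was -0.051 (adjusted p 0.785). Over 26 alternatives the call was lost in 4 for Col4a5 and 3 for Col4a6, and with brightness as a covariate Col4a5 differed by -0.13 (adjusted p 0.866).

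Col4a1, Col4a2 and Col4a4 were not called. Col4a1 was 4.85, 4.97 and 4.80 in rapamycin and 5.15, 4.99 and 5.22 in BA+rapamycin (difference 0.25, SE 0.19, adjusted p 0.299). Col4a2 was 4.44, 4.66 and 4.42 against 4.76, 4.72 and 4.77 (difference 0.24, SE 0.18, adjusted p 0.279), and Col4a4 was 1.46, 1.32 and 0.87 against 0.69, 0.61 and 1.42 (difference -0.31, SE 0.26, adjusted p 0.355). The Col4a4 probes disagreed in direction, from -0.31 to 1.49, and none was called. The second probe of Col4a6 gave -0.56 and was not called.

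Among the other collagens, Col15a1 was 0.36, 0.46 and -0.34 in rapamycin and 4.25, 4.42 and 3.93 in BA+rapamycin (log2 difference 4.04, SE 0.41, adjusted p 0.000148). Its other probes gave 0.42 (SE 0.44, adjusted p 0.448) and 0.99 (SE 0.41, adjusted p 0.0748). Col8a1 was -2.93, -2.54 and -3.09 in rapamycin and 0.49, 1.29 and 1.03 in BA+rapamycin (log2 difference 3.79, SE 0.56, adjusted p 0.00105). Both genes differed between the groups, with every BA+rapamycin array above every rapamycin array.

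Col12a1 was -0.48, -0.51 and -0.91 in rapamycin and 0.90, 1.74 and 1.09 in BA+rapamycin (difference 1.88, SE 0.53, adjusted p 0.0173). Col16a1 was 3.76, 4.01 and 3.70 against 4.74, 4.73 and 4.89 (difference 0.96, SE 0.21, adjusted p 0.00565), and Col20a1, a little studied fibril-associated chain, was -1.71, -1.60 and -2.08 against -0.37, 0.07 and -0.34 (difference 1.58, SE 0.47, adjusted p 0.0219). All 3 were without overlap, but with brightness as a covariate Col20a1 changed sign, to -0.58 (adjusted p 0.214). Col8a2 was -0.03, 0.05 and -0.37 in rapamycin and -0.10, 0.30 and 0.22 in BA+rapamycin, and its difference of 0.26 (SE 0.26, adjusted p 0.436) was not called.

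Col6a2 was called lower in this comparison, as were Col22a1, Col23a1 and Col9a2, whose BA+rapamycin signal lay at or near background. Col6a2 was 3.78, 3.998 and 3.97 in rapamycin and 3.17, 3.33 and 2.96 in BA+rapamycin (difference -0.77, SE 0.24, adjusted p 0.0286), but its second probe gave 0.08, and with brightness as a covariate the difference was 0.030. Col22a1 was -1.45, -1.71 and -1.82 in rapamycin and was not well above background on any BA+rapamycin array, so that it was at least 2.04-fold lower (adjusted p 0.00658). With normexp the Col22a1 difference was 0.017 (adjusted p 0.945). Col23a1, a transmembrane collagen, was -1.18, -1.22 and -1.46 in rapamycin and -3.23, -2.25 and -1.73 in BA+rapamycin (difference -1.11, SE 0.31, adjusted p 0.0171), and the signal cleared background on 1 of 3 BA+rapamycin arrays. With normexp the Col23a1 difference was -0.034 (adjusted p 0.869).

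Col9a2, a chain of the cartilage collagen IX, was -3.05, -3.20 and -3.42 in rapamycin and was not well above background on any BA+rapamycin array (adjusted p 0.043), and no fold is given because its level in rapamycin lay below the background limit of the BA+rapamycin arrays. With normexp and its offset of 50 units, on arrays whose 75th percentile was 74.6 to 109 in BA+rapamycin, the Col9a2 difference was 0.62 (adjusted p 0.0239), in the other direction.

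Col6a1, Col6a3, Col14a1 and Col18a1 were not called. Col6a1 was 6.23, 6.35 and 6.30 in rapamycin and 6.36, 6.20 and 5.92 in BA+rapamycin (difference -0.14, SE 0.19, adjusted p 0.565). Col6a3 was 4.68, 4.85 and 4.91 in rapamycin and 5.41, 5.46 and 5.29 in BA+rapamycin (difference 0.58, SE 0.32, adjusted p 0.166). The groups overlapped for Col6a1 and not for Col6a3. Col14a1 was 4.63, 4.63 and 4.70 in rapamycin and 4.96, 4.87 and 4.75 in BA+rapamycin (difference 0.21, SE 0.29, adjusted p 0.582), without overlap. Col18a1 was 6.88, 7.09 and 6.94 in rapamycin and 7.32, 6.97 and 7.15 in BA+rapamycin (difference 0.18, SE 0.24, adjusted p 0.566), with overlap.

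The count under rapamycin depended on the setting. Of all tested probes 41.7% were called. With brightness as a covariate 5 genes were called (6.42% of all probes), Col8a1, Col15a1 and Col6a3 higher and Col22a1 and Col9a2 lower, and the fibrillar median fell to 0.50. With slide as a fixed term 13 were called, 9 higher and 4 lower (28.5%). This fit gave the same counts as leaving out rapamycin replicate 1, the only array of these groups on the first slide. With slide as a random block 18 were called (43%). Within the second slide, with only 2 rapamycin and 3 BA+rapamycin arrays in the fit, 5 were called (11.8%), Col1a1, Col3a1, Col8a1 and Col15a1 higher and Col4a3 lower. Without rapamycin replicate 3 there were 10 (23.5%), and with a block on the title string 6 (13%). A fit of the rapamycin and BA+rapamycin arrays alone, without the wider spread of BA+DMSO, called 21 (56.4%).

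**Figure D3:**
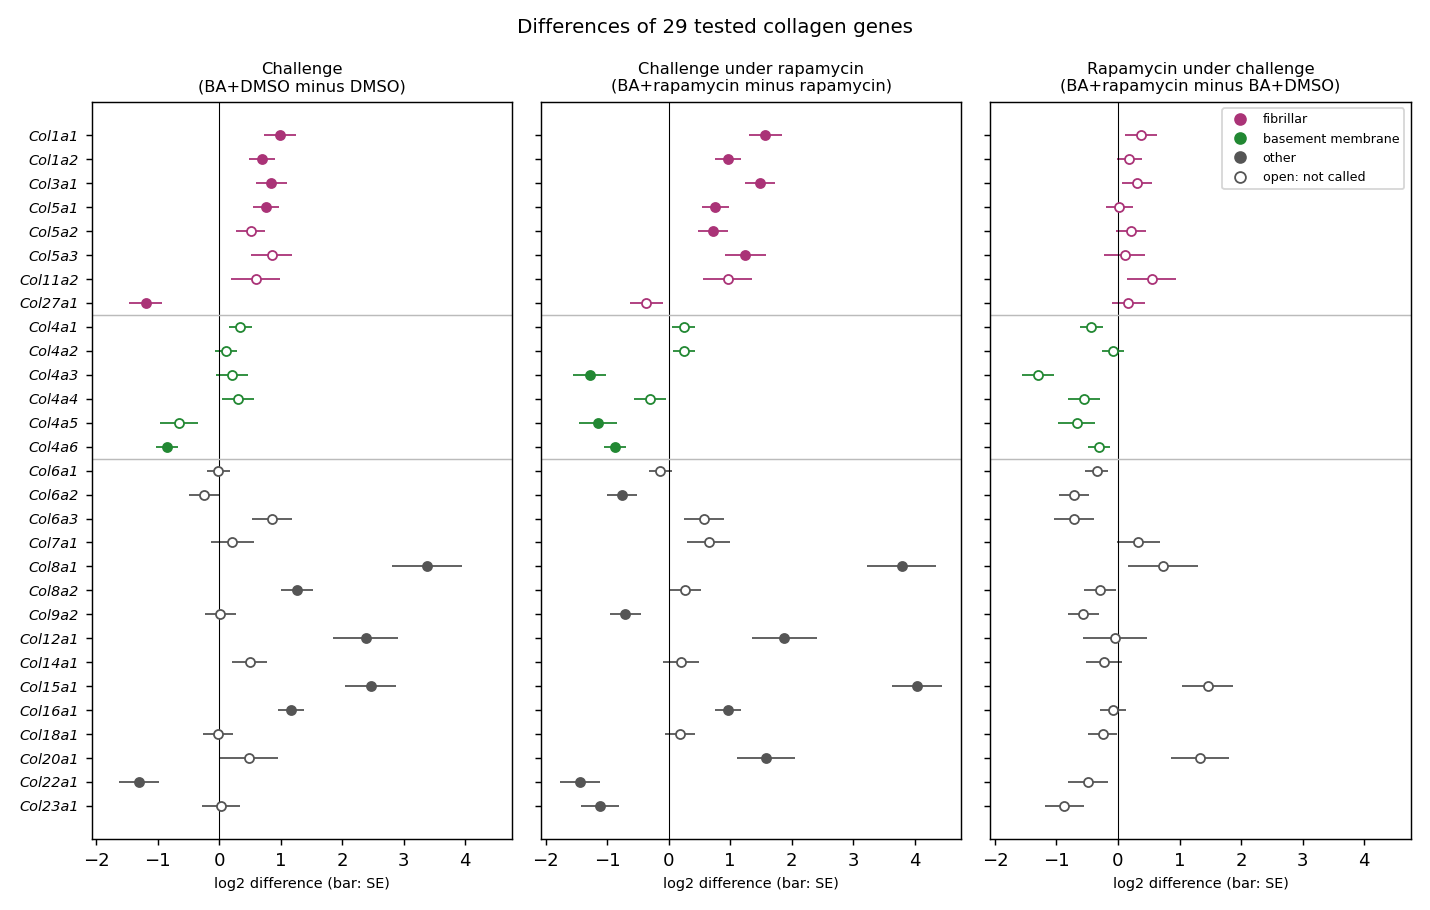
Log2 difference of the 29 tested collagen genes (horizontal axis, bars are SE from the limma fit) in 3 comparisons, with genes grouped by class (vertical axis), filled points called at an adjusted p under 0.05 and open points not called. Of 29 genes, 12 are filled in the challenge, 18 in the challenge under rapamycin and 0 for rapamycin under challenge.

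The 2 challenge comparisons share no array, but both come from 1 fit and so share the estimated spread of each probe. All 10 genes called by both moved in the same direction in each: Col1a1, Col1a2, Col3a1, Col5a1, Col8a1, Col12a1, Col15a1 and Col16a1 higher, and Col4a6 and Col22a1 lower. Col22a1, above background in both unchallenged groups and not in BA+rapamycin, could be tested only through the groups where it was higher. The shared genes were 10 of the 12 called in the challenge and 10 of the 18 called under rapamycin. Among all genes, 17.5% were called in both with the same direction, which was 81.6% of the genes called in the challenge and 40.9% of those called under rapamycin. The shared share of the challenge calls was thus near that of all genes. The interaction, which tests whether the difference made by the challenge depended on rapamycin, called 0 of 29 genes in limma, where 0% of all genes were called. An unadjusted p under 0.05 was reached by 4 collagen genes, against 6.01% of all genes, and the smallest were those of Col4a3 (-1.49, SE 0.37, limma adjusted p 0.494) and Col15a1 (1.58, SE 0.58, limma adjusted p 0.737), whose other probes gave -0.24 and 0.12. Without BA+DMSO replicate 2 the interaction called 1 collagen gene, Col4a3 (adjusted p 0.045), and 11% of all tested probes. With normexp the Col4a3 interaction was -0.33 (adjusted p 0.635).

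BA+rapamycin minus BA+DMSO asked whether rapamycin changed collagen RNA in challenged mice. It shares the BA+DMSO arrays with the challenge and the BA+rapamycin arrays with the challenge under rapamycin. Limma called 0 of 29 genes, where 0.305% of all genes were called, and 8 collagen genes had an unadjusted p under 0.05, as did 20.5% of all genes. The smallest p was that of Col4a3, at -1.28, -1.41 and -1.54 in BA+DMSO and -3.13, -2.85 and -2.13 in BA+rapamycin (log2 difference -1.30, SE 0.26, limma adjusted p 0.0667). Next was Col15a1, at 3.25, 3.31 and 1.67 in BA+DMSO and 4.25, 4.42 and 3.93 in BA+rapamycin (log2 difference 1.46, SE 0.41, adjusted p 0.124). The groups did not overlap for either, although neither passed the test. The other tested probes of Col15a1 gave -0.080 (SE 0.44, adjusted p 0.917) and 0.23 (SE 0.41, adjusted p 0.727). Since 2 of the 3 BA+rapamycin values of Col4a3 were not well above background, its difference is not exact, and with normexp it was -0.23 (adjusted p 0.363).

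No member of a class was called, and the signs differed between classes. All 8 fibrillar differences were above 0, from 0.02 for Col5a1 to 0.55 for Col11a2, with a median of 0.20. That median was 0.067 without BA+DMSO replicate 3 and 0.45 without BA+DMSO replicate 1. With a block on the string shared by sample titles, which leaves 1 BA+DMSO array, 3 were above and 5 below 0, with a median of -0.11. All 6 collagen IV differences were below 0, from -0.08 for Col4a2 to -1.30 for Col4a3, with a median of -0.49 (-0.53 to -0.33 with 1 array left out). With the title block 1 was above and 5 below 0, with a median of -0.43, and the 3 tested probes of Col4a4 ran from -0.55 to 0.28. Of the other chains 4 were above 0 and 11 below, with a median of -0.25, against -0.03 over all genes. That median was 0.030 with no filter on dim probes, a setting under which the median of all probes was 0.36. It was -0.0012 with array weights (all probes -0.054) and -0.59 with the title block (all probes 0.039). Col1a1 differed by 0.37 (SE 0.26), Col3a1 by 0.31 (SE 0.25), Col4a5 by -0.67 (SE 0.31), Col6a2 by -0.71 (SE 0.24) and Col6a3 by -0.71 (SE 0.32), each with an adjusted p above that of Col15a1.

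BA+DMSO replicate 2 decided the count of calls. Without it limma called 8 collagen genes and 11092 of all probes (39.9%): Col7a1, Col15a1 and Col20a1 higher by 0.78, 1.74 and 1.90, and Col4a3, Col4a5, Col6a1, Col6a2 and Col6a3 lower, by -1.30, -1.06, -0.49, -0.95 and -1.17. Quantile normalization between arrays called Col4a3 alone (-1.59, adjusted p 0.0396).

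Per array, the class score is the median over a class of the difference of each gene from its DMSO mean. The fibrillar score ran from -0.07 to 0.08 in DMSO and from 0.32 to 1.09 in BA+DMSO, and from -0.43 to 0.04 in rapamycin and from 0.81 to 1.07 in BA+rapamycin. The basement membrane score was -0.06 to 0.12 in DMSO and -0.29 to -0.15 in rapamycin, while the BA+rapamycin arrays had -0.83 to -0.26, and the BA+DMSO mean was 0.03 ± 0.0283 (SD, n = 3). The score of the others ran from -0.03 to 0.04 in DMSO and 0.42 to 0.54 in BA+DMSO, and from -0.06 to 0.18 in rapamycin and 0.15 to 0.36 in BA+rapamycin. Challenged arrays were thus above unchallenged ones in the fibrillar class with or without rapamycin. Without Col4a3, whose BA+rapamycin signal was near background, the basement membrane score ran from -0.30 to -0.23 in rapamycin and from -0.53 to 0.0044 in BA+rapamycin. Those groups overlapped with Col4a3 as well as without it.

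The fibrillar score minus the basement membrane score averaged -0.02 ± 0.154 in DMSO against 0.64 ± 0.364 in BA+DMSO, and 0.07 ± 0.188 in rapamycin against 1.51 ± 0.382 in BA+rapamycin (SD, n = 3). The highest BA+DMSO array, at 1.04, lay just below the lowest BA+rapamycin array, at 1.07. Without Col4a3 the averages were 0.73 ± 0.329 in BA+DMSO and 1.25 ± 0.388 in BA+rapamycin, and these groups overlapped (highest BA+DMSO array 1.06, lowest BA+rapamycin array 0.81). These scores are given as a description with no test.

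**Figure D4:**
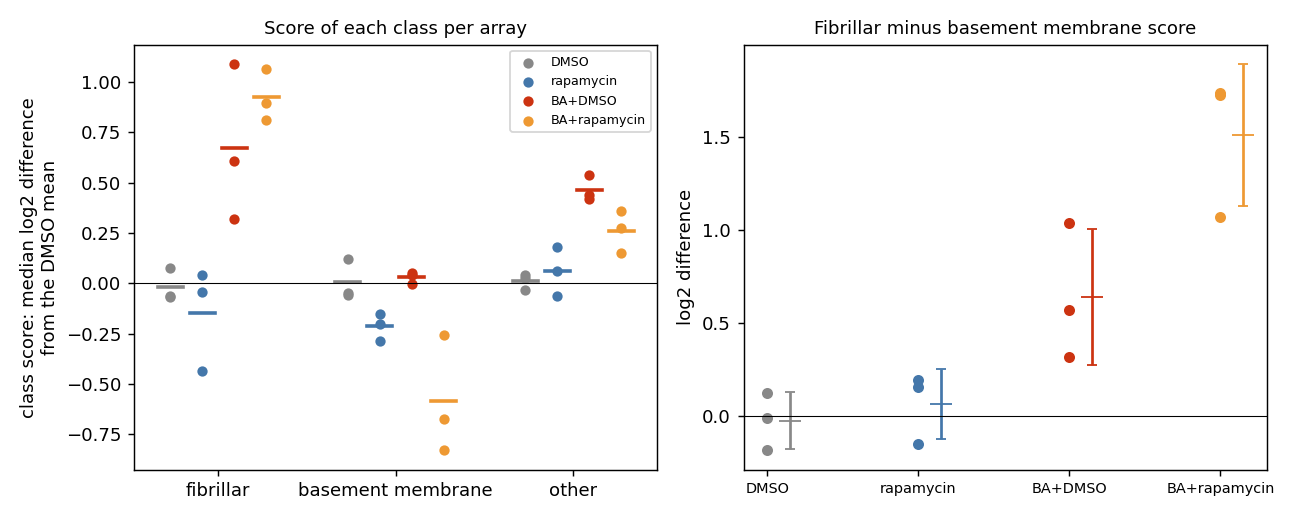
Left, class score per array (vertical axis, median log2 difference from the DMSO mean) for fibrillar, basement membrane and other collagen genes, with points for arrays and lines for group means, and right, fibrillar minus basement membrane score by group, with points for arrays and mean ± SD beside them. The right panel rises from -0.02 in DMSO to 1.51 in BA+rapamycin with all 6 collagen IV chains, and to 1.25 without Col4a3, which is not drawn.

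Rapamycin minus DMSO, in unchallenged mice, gave limma calls for 0 of 29 collagen genes, where 0.00499% of all genes were called, and an unadjusted p under 0.05 for 2, against 4.43% of all genes. These were Col8a2, at -0.89, -0.82 and -0.80 in DMSO and -0.03, 0.05 and -0.37 in rapamycin, a difference of 0.72 (SE 0.26, unadjusted limma p 0.0192), and Col27a1, at -0.67 (SE 0.27, unadjusted limma p 0.0309). The adjusted p was 1.00 for both. Groups did not overlap for Col8a2 and overlapped for Col27a1. Medians were -0.14 for fibrillar, -0.19 for basement membrane and 0.06 for other chains, against -0.01 over all genes. With 1 array left out these ran from -0.26 to -0.027, from -0.25 to -0.12 and from 0.031 to 0.13, in that order.

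Chains that assemble with each other did not always move by the same amount. Relative to DMSO, Col8a1 minus Col8a2 averaged -0.40 ± 0.152 log2 units in rapamycin, 2.11 ± 1.65 after the challenge and 3.13 ± 0.201 after the challenge with rapamycin (SD, n = 3). For Col6a3 minus Col6a1 the challenged groups had 0.87 ± 0.539 without and 0.51 ± 0.163 with rapamycin. In the same order, Col1a1 minus Col1a2 had 0.29 ± 0.275 and 0.48 ± 0.152, and Col4a1 minus Col4a2 had 0.22 ± 0.245 and -0.13 ± 0.0883. The difference within collagen VIII was the widest of these.

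For 9 genes over 1 probe was tested, and not all of these genes had like values across their probes. Under the challenge all tested probes of Col16a1 were called, and 1 of 3 for Col15a1 and 1 of 2 for Col4a6. Under rapamycin, 2 of 2 probes of Col20a1, 1 of 2 of Col6a2 and 1 of 2 of Col23a1 were called as well, and the probes of Col6a2, Col14a1, Col18a1 and Col4a4 differed in direction. Whether they read different transcripts was not tested.

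**Figure D5:**
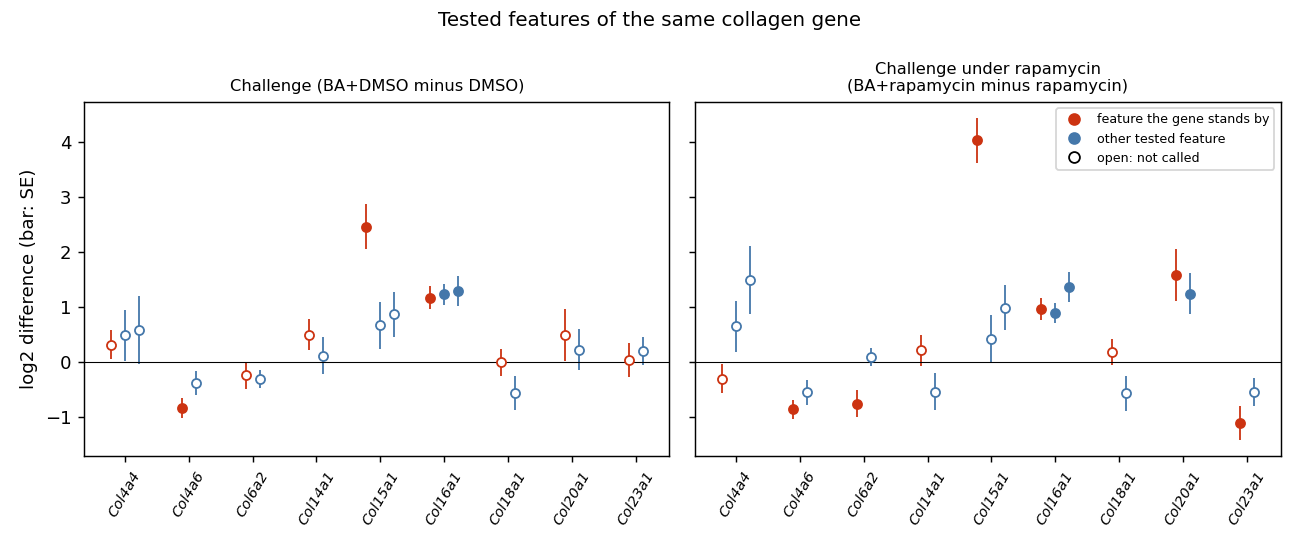
Log2 difference (vertical axis, bars are SE) of each tested probe of the 9 collagen genes (horizontal axis) that had over 1, for the challenge on the left and the challenge under rapamycin on the right, where red marks the probe the gene stands by, blue the others, and open points were not called. Col16a1 probes lie together, whereas those of Col15a1 spread from 0.66 to 2.46 on the left and from 0.42 to 4.04 on the right.

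The remaining 14 collagen genes failed the filter on dim signal, and 9 of them were not well above background on any array: Col24a1 among the fibrillar chains and Col10a1, Col13a1, Col17a1, Col19a1, Col28a1, Col6a4, Col6a5 and Col9a3 among the others. Col6a6 and Col25a1 reached it on 1 array and Col9a1 on 2. Their levels are given no order here.

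Collagen needs enzymes and chaperones to fold, leave the cell and be cross-linked. Of 32 such genes, 29 were tested, and the challenge raised 10 and lowered 0, with a median log2 difference of 0.49, where 21.4% of all genes were called. The 3 largest called differences were those of Loxl4, a lysyl oxidase (1.70, SE 0.48, limma adjusted p 0.0304), Pcolce, an enhancer of procollagen cleavage (1.31, SE 0.24, adjusted p 0.00421) and Plod2, a lysyl hydroxylase (1.11, SE 0.17, adjusted p 0.00198). Under rapamycin 9 were higher and 2 lower, with a median of 0.39, a share below the 42.7% called among all genes, and rapamycin under challenge called 0, with a median of -0.20.

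Collagen receptors and the proteases that degrade collagen formed a second list of 16 genes, of which 11 were tested. The challenge raised 6 and lowered 2, where 10.4% of all genes were higher and 11% lower, with a median of 0.91, led by Itga11, an integrin chain that binds collagen I (1.21, SE 0.30, limma adjusted p 0.0177), Mmp14, a membrane-bound collagenase (1.21, SE 0.16, adjusted p 0.000831) and Lair1, an inhibitory collagen receptor of leukocytes (1.16, SE 0.20, adjusted p 0.00315). Under rapamycin 4 were higher and 2 lower (median 0.30), where 42.7% of all genes were called, and rapamycin under challenge called 0 (median -0.17).

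Outside the collagen genes, the probes whose values were most like the mean of the fibrillar genes over the 12 arrays were those of Runx1, Srgap1, Olr1, Pik3cd and Sirpa, with Pearson's r of 0.970 to 0.975. The arrays share the groups, the slides and the brightness given above, so these values are a description only.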

How the data were processed

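RNA from 12 aortas was labelled with Cy3 by the authors and hybridised, 1 mouse per array, to Agilent SurePrint G3 mouse arrays of 1 colour that lay on 2 slides. As stated per the file headers, Feature Extraction 10.7.1.1 read the images and probes are placed on mouse build mm9 (NCBI37), whereas the submitters' processing notes name version 9.5.1.1. The deposited signal used here is a linear intensity after Agilent's background subtraction, with arrays not yet scaled to each other. The flags per the file headers mark a spot as well above background, saturated or an outlier, and no spot was saturated. The values of the deposited matrix are linear intensity as well, with a median of 17.1 on every array. They matched a quantile normalization (r of 0.9999 on each array), a step not given in the sources used here.

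The deposited intensity was put on the log2 scale here, outlier spots were dropped, spots of a probe were averaged, and the 75th percentile of each array was subtracted. Probes with at least 0.5 of spots well above background on all arrays of 1 group were tested (27801 probes, 20026 gene names). Limma 3.58.1 in R 4.3.3 (with the package data.table, version 1.17.8) fitted all 12 arrays with 1 mean per group, two-sided, with 8 residual degrees of freedom, and was checked on simulated data. The simulated arrays had the same spread in every group and no slide or brightness effect. They therefore do not check the fit under the unequal spread and the slides of these data. Precision is limited by 3 arrays per group, 1 mouse each. P-values are adjusted over all tested probes within a contrast.

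The collagen genes, classes and lists were chosen with earlier results of these data known. Named by rule were the main fibrillar chains, collagens IV, VI, VIII, XII, XIV, XV and XVIII, and of the rest every called gene up to the 6 largest per class and contrast. Where a contrast called none, the 2 with the smallest p were named, and for each of the other lists the 3 largest called. Genes shown for other reasons were picked after their values were seen. Replicates are numbered in order of deposition. Promoters came from RefSeq (GRCm38.p6), which held 23 of the 29 tested genes. Protein sequences were not used here.

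Other cell lists (endothelial, adipocyte, cartilage, Schwann, striated muscle) were counted too. In the challenge 3 of 7, 0 of 5, 0 of 4, 2 of 5 and 0 of 4 tested markers were called higher, and 0, 0, 1, 1 and 0 lower. Among all genes 10.4% were called higher there and 11% lower. Under rapamycin 1, 0, 0, 2 and 1 were called higher, and 2, 0, 2, 1 and 1 lower, against 19.8% and 22.9% of all genes. The adipocyte markers, of which none was called, had median log2 differences of 1.46 in the challenge and 1.73 under rapamycin. Class scores without Col4a3 were added after seeing the data.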

Additional observations from a re-analysis of the deposited data

How the results depend on the processing

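The counts of called collagen genes depended on the fit. Each percentage here is the share of all tested probes called under the same setting. In the challenge limma called 12 genes (20.5%), and 15 with slide as a random block (36.9%). With slide as a fixed term, which rests on rapamycin replicate 1, it called 0 (0.054%). It called 0 with array weights, whose iteration did not converge (0.403%), and 2 in a fit of the groups compared alone (4.47%). There were 3 by the methods' rule (2.51%) and 5 to 17 with 1 array left out (7.38 to 38%). Under rapamycin (18 genes, 41.7%) limma called 5 within the second slide (11.8%), 5 with brightness as a covariate (6.42%), 2 by the methods' rule (5.14%) and 10 to 21 with 1 array left out (23.5 to 56.9%). For rapamycin under challenge (0 genes) quantile normalization (0.802%) and the deposited matrix (0.799%) each called 1, and leaving out 1 array gave 0 to 8 (0.108 to 39.9%). Rapamycin alone (0 genes) gave 2 with array weights (5.44%), and the interaction (0 genes) gave 0 to 1 with 1 array left out (0 to 11%). The count was within 1.5 times the reported one under 19 of 26 alternatives in the challenge and 22 of 27 under rapamycin. These alternatives are not independent of each other, as given at the end of this section.

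A replicate block was made from a string shared by sample titles, whose meaning the labels do not give, so it is not known to pair the mice. Of the BA+DMSO arrays 2 have no such string and were left out, so the blocked values of the challenge and of rapamycin under challenge rest on BA+DMSO replicate 1. With this block the challenge called 2 (6.16%), the challenge under rapamycin 6 (13%), and the other 3 comparisons 0 each. The block moved the medians of the basement membrane and other genes in the challenge to -0.10 and 0.83, of the other genes under rapamycin to 0.055, and of the fibrillar and other genes in rapamycin under challenge to -0.11 and -0.59.

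Median log2 differences moved as follows. In the challenge the basement membrane median was -0.011 with normexp background correction (with an offset of 50 intensity units) and 0.020 with slide as a term (0.071 to 0.23 with 1 array left out), and the fibrillar median was 0.41 with brightness as a covariate. The median of the other genes there was 0.41 with quantile normalization, 0.42 with the deposited matrix and with normexp, 0.55 with the percentile over bright probes, 0.60 with no filter, 0.68 with a stricter filter, 0.23 with array weights, 0.25 with brightness and 0.30 over all probes of a gene (0.13 to 0.58 with 1 array left out). Under rapamycin the basement membrane median was -0.31 with normexp and with the stricter filter and -0.24 over all probes, and the fibrillar median was 0.69 with normexp and 0.50 with brightness. The others had 0.44 with the percentile over bright probes, 0.81 with no filter and 0.61 with the stricter filter (0.23 to 0.38 with 1 array left out). In rapamycin under challenge the others had -0.11 with the percentile over bright probes and 0.030 with no filter, where all probes had 0.13 and 0.36. They had -0.0012 with array weights and -0.16 with brightness (-0.30 to -0.090 with 1 array left out). In rapamycin alone the others had -0.052 with no filter, where all probes had -0.083.

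Under rapamycin Col20a1 (-0.58) and Col6a2 (0.030) changed sign with brightness as a covariate, as did Col22a1 (0.017) and Col9a2 (0.62) with normexp. The cause of these sign changes was not tested. Of 763 tries over 30 single-gene results, 591 kept direction and call. These tries are not independent, and some could hardly fail. The setting over all probes of a gene cannot lose a call, and the deposited matrix nearly repeats quantile normalization. Leaving out an array of a group not compared changes only the estimate of the spread. The share kept is therefore not a measure of how robust the calls are. Under rapamycin the median of all probes shifted by 0.18 with the percentile over bright probes, by 0.22 with normexp and by 0.93 without the filter. In the challenge it shifted by 0.14 with normexp and by 0.48 without the filter. In rapamycin under challenge it shifted by 0.14 with the percentile over bright probes and by 0.37 without the filter. Of the 29 tested genes 24 were well above background on all 12 arrays, and the signal of the others does not give an exact size in every group.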
